A study of Mus musculus with 8 samples.

Results

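Formins and Cdc42 effector proteins are a pair of protein families that act on the actin cytoskeleton downstream of small GTPases such as Cdc42. They were examined in bone marrow derived mast cells (BMMCs), mast cells grown in culture from mouse bone marrow. The 10 genes, 5 of each family, were listed by name and taken from 56748 gene IDs in each of 8 RNA-seq libraries. They were chosen with the fold changes of these same libraries known, so their differences between the groups are a description. For the same reason their counts of calls support nothing beyond these libraries.

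Formins nucleate and elongate unbranched actin filaments through their FH1 and FH2 domains, and several are released from autoinhibition when a small GTPase binds. The Cdc42 effector proteins, also called Borg proteins, bind active Cdc42 through a short CRIB motif and interact with septins, filament-forming GTPases of the cell cortex. In mast cells the actin cortex is remodelled during adhesion, migration and degranulation.

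Both groups were cultures from young C57BL/6 mice, differentiated in IL-3 and not stimulated. The Mettl3-RNP group (4 libraries) was electroporated with Cas9 ribonucleoproteins (RNPs) carrying guide RNAs against Mettl3, the catalytic subunit of the enzyme complex that methylates mRNA adenosines (m6A). The Pulsed group (4 libraries) was electroporated without RNPs, so it controls for the pulse but not for Cas9 cutting. Mettl3-RNP cultures were mixed populations that still held untargeted cells, and they had been checked for depletion of the protein before RNA was extracted. The labels number the libraries of each group from 1 to 4, and same-numbered libraries were compared as pairs.

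The libraries held 32643260 to 45324826 counts. The targeted gene was lower in 4 of 4 pairs, at 12.3, 9.18, 4.88 and 9.21 CPM (counts per 1000000 counts of the library) in Mettl3-RNP libraries 1 to 4. In Pulsed libraries 1 to 4 it stood at 25.9, 24.5, 11.2 and 26.5 CPM, so that Pulsed 3 lay below Mettl3-RNP 1. The log2 fold change of Mettl3 was -1.30 (SE 0.109, adjusted p 0.00543 by edgeR). Summed mast cell markers reached 49857 to 68259 CPM in Pulsed and 46096 to 62544 CPM in Mettl3-RNP libraries, from 12 of 13 listed symbols. Cpa3 was the highest of them (20416 to 37159 and 16657 to 28133 CPM), while Mcpt4 and Tpsab1 reached at most 5.59 and 0.210 CPM. Macrophage markers (9 of 9 genes with a count) summed to 5.72 to 11.1 CPM in Pulsed and 5.33 to 29.6 CPM in Mettl3-RNP libraries. Cd68 alone reached 28.3 CPM in a Mettl3-RNP library, while Adgre1 was lower in Mettl3-RNP libraries without overlap (0.827 to 1.52 CPM against 2.25 to 3.18 CPM). Of 7 neutrophil markers, S100a8, S100a9, Retnlg and Camp had 0 counts in all libraries. The other 3 neutrophil markers, mostly Mmp8, summed to 0.574 to 0.986 CPM in Pulsed and 0.0855 to 0.673 CPM in Mettl3-RNP libraries. Basophil markers (6 of 6 genes with a count) summed to 2244 to 3323 CPM in Pulsed and 1795 to 2420 CPM in Mettl3-RNP libraries, mostly from Ifitm1 and Cd200r3, while the basophil proteases Mcpt8 and Prss34 reached at most 4.03 and 1.74 CPM. Ifitm1 (1679 to 2655 against 1004 to 1616 CPM) and Il18rap (37.9 to 64.5 against 22.7 to 34.4 CPM) were lower in Mettl3-RNP libraries without overlap. Cd200r3 overlapped and reached higher there (499 to 623 against 509 to 819 CPM). Eosinophil markers summed to 4.62 to 8.64 CPM in Pulsed and 2.25 to 3.98 CPM in Mettl3-RNP libraries (3 of 4 genes with a count, Epx at 0), and erythroid markers to 3.68 to 5.12 and 2.29 to 3.61 CPM (6 of 7, Hba-a2 at 0), so that both lists were lower in Mettl3-RNP libraries without overlap. Megakaryocyte markers (6 of 6 genes) summed to 9.61 to 42.2 and 3.65 to 25.2 CPM, and stromal markers (7 of 8, Dcn at 0) to 3.86 to 4.16 and 3.08 to 6.35 CPM. The megakaryocyte sum was nearly all Itgb3 (8.79 to 41.5 and 2.07 to 24.4 CPM), with each other gene of that list at most 0.937 CPM. The eosinophil sum came from Siglecf and Ccr3, with Prg2 at most 0.0334 CPM. Pdgfrb reached the highest level of the stromal genes and Hba-a1 of the erythroid genes. Egr1, an immediate early gene, stood apart in replicate 3, at 10694 CPM in Mettl3-RNP 3 and 8655 CPM in Pulsed 3, against 26.3 to 2393 CPM elsewhere. In Mettl3-RNP 2, 37.4% of 1969 olfactory and vomeronasal receptor genes had a count, against 9.80% to 28.6% in the other libraries. The part of these differences in the results below was not tested, and in bulk RNA fewer cells of a type and less RNA per cell cannot be told apart.

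Of the 10 genes, 9 passed the filter on low counts and 4 of these were called, at a threshold of 0.05 on the p-value that edgeR adjusted over all 14942 genes tested. The 4 genes were the formin Inf2 and the effectors Cdc42ep3, Cdc42ep4 and Cdc42ep5, and each was higher in Mettl3-RNP cells in 4 of 4 pairs. Among all genes tested, 3.74% were called, 2.35% as higher and 1.39% as lower, and since the members were chosen on this contrast nothing is read from the difference. The calls depended on the pairing and on replicate 2, as did those of all genes. With no replicate block 0 of the 9 and 0 of all 14942 genes were called by edgeR. The smallest adjusted p was 0.534 among the members and 0.427 among all genes, and an unadjusted p under 0.05 was found for 5 of the 9 and 579 of all genes. Without replicate 2, 0 of the 9 and 26 of all 14904 genes then tested were called, with the members' smallest adjusted p at 0.0648 and 4 of the 9 at an unadjusted p under 0.05, beside 2236 of all genes.

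**Figure D1:**
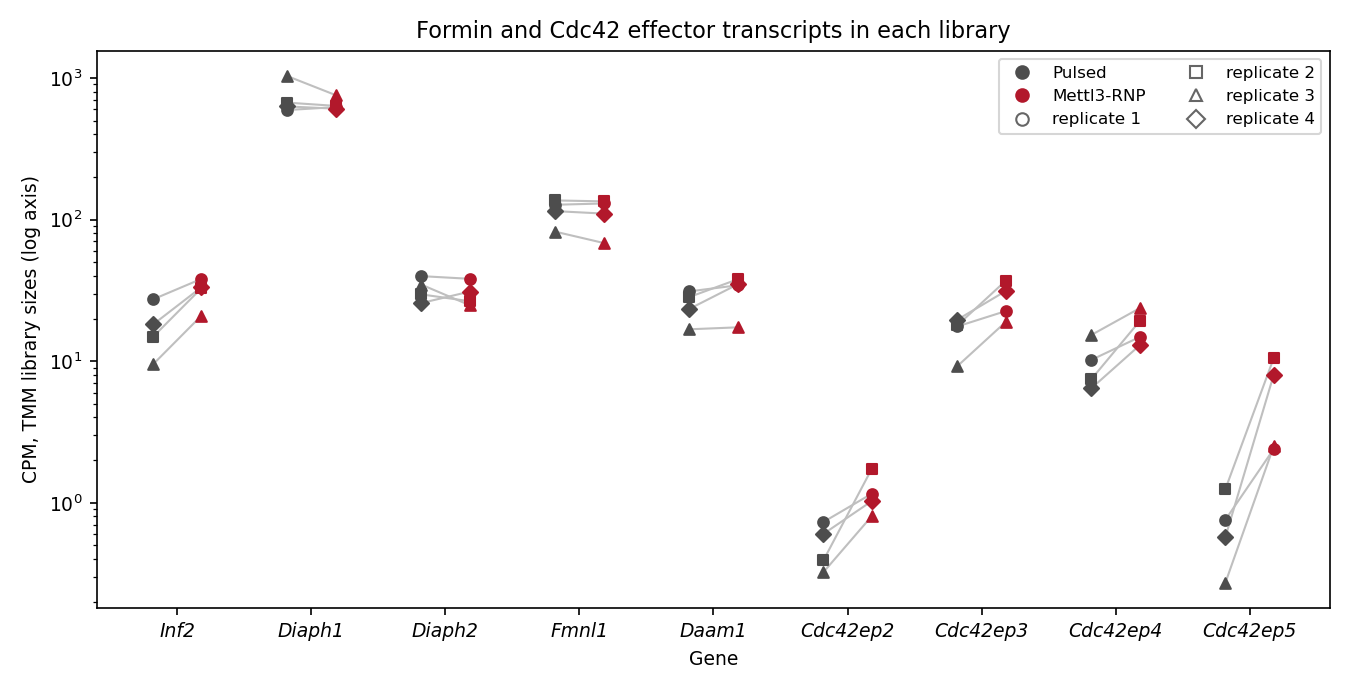
Expression in CPM (log axis) of the 9 genes that passed the filter on low counts, with 1 point per library, Pulsed in grey and Mettl3-RNP in red, and lines joining libraries of the same replicate number. All 4 lines rise for Inf2, Daam1 and Cdc42ep2 to Cdc42ep5, while those of Diaph1, Diaph2 and Fmnl1 run in both directions.

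Among the formins, Inf2 was the gene called. The study had named it on these libraries, as higher with Mettl3 depleted and as methylated in resting mast cells. Its direction here is therefore not independent evidence. INF2 is an unusual formin that can sever and depolymerize actin filaments as well as build them, and one isoform sits on the endoplasmic reticulum, where it takes part in mitochondrial fission. Inf2 occupies bases 112555188 to 112581991 of chromosome 12 (GRCm39, plus strand), and its canonical transcript has 23 exons, 21 of them coding. Its level was 38.1, 32.8, 21.0 and 33.3 CPM in Mettl3-RNP libraries 1 to 4. In Pulsed libraries 1 to 4 it was 27.3, 14.9, 9.52 and 18.2 CPM. Pulsed 1 was the highest control and lay above Mettl3-RNP 3, so the groups overlapped although each pair rose. The means were 31.3 ± 7.28 CPM (SD, n = 4) in Mettl3-RNP and 17.5 ± 7.48 CPM (SD, n = 4) in Pulsed cells. The paired log2 differences were 0.48, 1.14, 1.13 and 0.87, and the fitted log2 fold change was 0.90 (SE 0.124, adjusted p 0.0165 by edgeR), a 1.87-fold difference. The smallest difference was that of pair 1, whose control library held the most Inf2. Without replicate 2 the log2 fold change was 0.82 with an adjusted p of 0.0872, and with no replicate block it was 0.84 with an adjusted p of 0.999.

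Diaph1 encodes mDia1, a formin activated by RhoA, and was by far the most abundant transcript of either family. It was measured at 622, 634, 756 and 606 CPM in Mettl3-RNP libraries 1 to 4. The Pulsed libraries 1 to 4 held 593, 669, 1030 and 629 CPM. Pulsed 3 stood above all other libraries, and the fitted log2 fold change was -0.13 (95% interval -0.34 to 0.09, adjusted p 0.482 by edgeR). Pair 3 had the largest difference, -0.45, and pairs 1, 2 and 4 differed by 0.07, -0.08 and -0.05.

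Fmnl1 encodes a formin of leukocytes, and was the next most abundant. Mettl3-RNP libraries 1 to 4 had 130, 134, 68.3 and 110 CPM, and Pulsed libraries 1 to 4 had 127, 136, 82.0 and 115 CPM. Replicate 3 was the lowest in both groups. The log2 fold change of Fmnl1 was -0.08 (95% interval -0.25 to 0.09, adjusted p 0.595 by edgeR), an interval that holds no rise of the size seen for Inf2.

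Diaph2 encodes mDia3, another diaphanous formin. Its level was 38.1, 26.5, 24.9 and 31.0 CPM in Mettl3-RNP libraries 1 to 4, against 39.8, 29.6, 34.7 and 25.7 CPM in Pulsed libraries 1 to 4. The groups overlapped widely, 3 pairs were lower and pair 4 was higher, and the log2 fold change was -0.11 (95% interval -0.38 to 0.16, adjusted p 0.648 by edgeR). Without replicate 3 this small difference changed sign, to 0.01.

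Daam1 encodes a formin linked to Wnt and planar cell polarity signalling. It was measured at 34.3, 37.8, 17.3 and 34.8 CPM in Mettl3-RNP libraries 1 to 4. The Pulsed values, in the same order, were 31.1, 28.4, 16.8 and 23.4 CPM. Replicate 3 was again the lowest in both groups, and the values overlapped. Daam1 was higher in 4 of 4 pairs, with differences from 0.05 to 0.57, but its log2 fold change of 0.30 (SE 0.104) had an adjusted p of 0.141 by edgeR and did not pass the threshold. The median log2 fold change of the 5 formins was -0.08, beside -0.0013 over all genes tested.

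**Figure D2:**
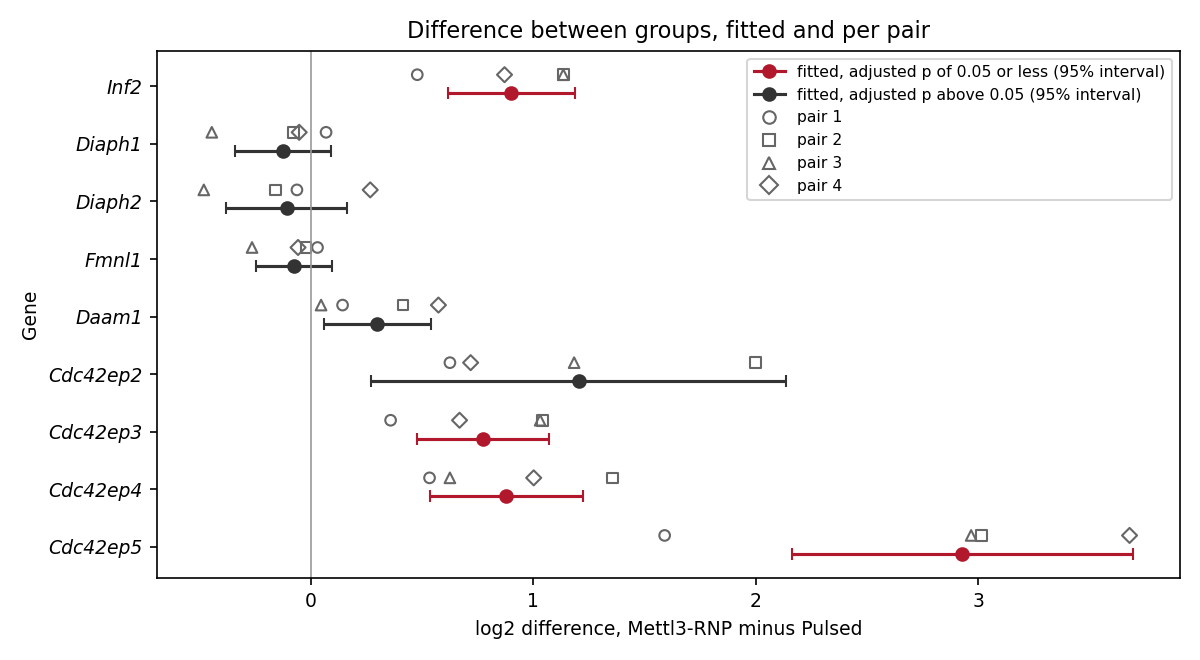
Log2 differences, Mettl3-RNP minus Pulsed, for the 9 tested genes. Filled points are the fitted log2 fold changes with their 95% intervals, red where the adjusted p was 0.05 or less, and open symbols are the 4 paired differences; Cdc42ep5 lies farthest from 0 at 2.93, and pair 1 has the smallest difference for Inf2 and for each Cdc42 effector gene.

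The 5 Cdc42 effector genes encode small proteins of 409, 214, 254, 349 and 150 residues (Cdc42ep1 to Cdc42ep5). Each canonical coding sequence held 1 stretch that encodes the core of the Cdc42-binding CRIB motif. It is shown because all 5 genes hold it. The stretches are 39 bases long and are given in the sense of the transcript from GRCm39, with the last 6 codons, from the phenylalanine to the closing histidine of the motif, in capitals:
Cdc42ep1: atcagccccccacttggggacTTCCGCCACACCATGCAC
Cdc42ep2: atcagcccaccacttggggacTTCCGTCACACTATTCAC
Cdc42ep3: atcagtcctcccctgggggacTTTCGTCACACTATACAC
Cdc42ep4: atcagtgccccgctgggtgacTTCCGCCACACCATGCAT
Cdc42ep5: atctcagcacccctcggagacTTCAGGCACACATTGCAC

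These stretches lie at chr15:78731668-78731706 on the plus strand (exon 2 of Cdc42ep1) and, on the minus strand, at chr19:5968578-5968616 (exon 2 of Cdc42ep2), chr17:79642790-79642828 (exon 2 of Cdc42ep3), chr11:113620273-113620311 (exon 2 of Cdc42ep4) and chr7:4154682-4154720 (exon 3 of Cdc42ep5). Of the 39 positions, 24 held the same base in all 5 genes. The closest pair was Cdc42ep1 and Cdc42ep2 with 35 identical bases. Cdc42ep5 was the most divergent, with 26 or 27 bases shared with each of the others.

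Cdc42ep5 had the largest difference of the 10 genes. It occupies bases 4154030 to 4168710 of chromosome 7 (GRCm39, minus strand), with 3 exons of which 1 is coding. The counts were 89, 450, 75 and 281 in Mettl3-RNP libraries 1 to 4 and 27, 48, 11 and 21 in Pulsed libraries 1 to 4. In CPM these were 2.40, 10.5, 2.51 and 8.01 in Mettl3-RNP and 0.759, 1.25, 0.273 and 0.575 in Pulsed libraries. The lowest Mettl3-RNP library lay above the highest Pulsed library, although libraries within each group differed several fold. The means were 5.86 ± 4.06 CPM (SD, n = 4) and 0.715 ± 0.411 CPM (SD, n = 4). The paired log2 differences were 1.59, 3.01, 2.97 and 3.68, and the fitted log2 fold change was 2.93 (SE 0.332, adjusted p 0.0109 by edgeR), a 7.61-fold difference with a 95% interval from 2.16 to 3.70 on the log2 scale. Without replicate 2, which held the most Cdc42ep5 in both groups, the log2 fold change was 2.86 with an adjusted p of 0.0648. With no replicate block it was 3.03 with an adjusted p of 0.534. The lncRNA Gm73075 on the opposite strand, not used in the counting, overlaps 29.2% of the exon length of Cdc42ep5, and the strand setting of the counting was not stated.

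Cdc42ep3 had the highest mean of its family in both groups, although in replicate 3 Cdc42ep4 had the higher CPM in both. Its level was 22.6, 36.9, 18.9 and 31.2 CPM in Mettl3-RNP libraries 1 to 4. In Pulsed libraries 1 to 4 it was 17.6, 17.9, 9.22 and 19.6 CPM. Replicate 3 was lowest in both groups, and Pulsed 4 lay just above Mettl3-RNP 3. The paired log2 differences were 0.36, 1.04, 1.03 and 0.67, and the fitted log2 fold change was 0.77 (SE 0.128, adjusted p 0.0263 by edgeR), or 1.71-fold. Without replicate 2 it was 0.68 with an adjusted p of 0.121, and with no replicate block it was 0.77 with an adjusted p of 0.999. The lncRNA Gm17315 on the opposite strand covers 16.6% of the exon length of Cdc42ep3 and had at most 6 counts in a library, against 371 to 1581 for Cdc42ep3.

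Cdc42ep4 differed from the other effectors in its pattern across replicates, with replicate 3 the highest in both groups. It stood at 14.8, 19.2, 23.6 and 12.9 CPM in Mettl3-RNP libraries 1 to 4. The Pulsed values, in the same order, were 10.2, 7.47, 15.3 and 6.44 CPM. Pulsed 3 lay above Mettl3-RNP 1 and 4, so the groups overlapped, while each pair rose by 0.53, 1.35, 0.62 and 1.00 on the log2 scale. The fitted log2 fold change was 0.88 (SE 0.148, adjusted p 0.0272 by edgeR), or 1.84-fold. Without replicate 2 it was 0.71 with an adjusted p of 0.103, and with no replicate block it was 0.84 with an adjusted p of 0.999. The lncRNA Gm73374 on the opposite strand overlaps 10.3% of the exon length of Cdc42ep4.

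Cdc42ep2 was rare, with 43, 74, 24 and 36 counts in Mettl3-RNP libraries 1 to 4 and 26, 15, 13 and 22 counts in Pulsed libraries 1 to 4. In CPM these were 1.16, 1.73, 0.803 and 1.03 in Mettl3-RNP and 0.731, 0.392, 0.323 and 0.602 in Pulsed libraries. The groups did not overlap and 4 of 4 pairs were higher. The log2 fold change of 1.20 had a wide 95% interval, 0.27 to 2.14, and an adjusted p of 0.128 by edgeR, so that Cdc42ep2 did not pass the threshold. Cdc42ep1 was not detectable at this depth as more than a stray read. It had 1 count in Mettl3-RNP 3, Mettl3-RNP 4 and Pulsed 3 and 0 counts in the other 5 libraries, where 3 counts, the limit that a count of 0 allows, would be 0.0701 to 0.0844 CPM. No fold is given for it. The median log2 fold change of the 4 tested effector genes was 1.04, beside -0.0013 over all genes tested.

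Summed over the family, the Cdc42 effector genes reached 40.9, 68.4, 45.9 and 53.2 CPM in Mettl3-RNP libraries 1 to 4. The sum in Pulsed libraries 1 to 4 was 29.3, 27.0, 25.2 and 27.2 CPM. The Pulsed sums lay close together, at 27.2 ± 1.69 CPM (SD, n = 4), although Cdc42ep3 and Cdc42ep4 varied in opposite directions in replicate 3. The Mettl3-RNP sums, 52.1 ± 11.96 CPM (SD, n = 4), were all higher, with a ratio of means of 1.92. Cdc42ep5 made up 2.61% ± 1.49 (SD, n = 4) of the family sum in Pulsed and 10.4% ± 5.52 (SD, n = 4) in Mettl3-RNP cells, while Cdc42ep3 and Cdc42ep4 together supplied most of it in both groups. The formin sum was 858 ± 30.4 CPM (SD, n = 4) in Mettl3-RNP and 920 ± 171 CPM (SD, n = 4) in Pulsed cells. Diaph1 held 76.2% and 78.5% of it, and Inf2 held 3.66% ± 0.905 (SD, n = 4) and 2.02% ± 1.06 (SD, n = 4).

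Levels of different genes were compared per kilobase of the canonical transcript. In Pulsed cells the order ran from Diaph1 (129 ± 35.7 CPM per kb, SD, n = 4) through Fmnl1 (27.0 ± 5.57), Diaph2 (8.49 ± 1.60), Cdc42ep3 (7.07 ± 2.05), Daam1 (4.15 ± 1.05), Inf2 (3.78 ± 1.62), Cdc42ep4 (3.27 ± 1.32) and Cdc42ep5 (0.570 ± 0.328) to Cdc42ep2 (0.150 ± 0.0551). From Diaph2 to Cdc42ep4 each gene overlapped its neighbour in the order, so neighbours there are not separated by the spread between libraries. Diaph2 did stand apart from the last 3 of them. Its lowest library (6.72 CPM per kb) lay above the highest of Daam1 (5.18), Inf2 (5.91) and Cdc42ep4 (5.09). Diaph1, Fmnl1, Cdc42ep5 and Cdc42ep2 did not overlap their neighbours, and for the last 2 the gap was between 0.218 and 0.214 CPM per kb. In Mettl3-RNP cells Cdc42ep5 rose to 4.67 ± 3.24 CPM per kb (SD, n = 4), a range that reached those of Cdc42ep4, Inf2, Daam1, Diaph2 and Cdc42ep3. With the length of all annotated exons in place of the canonical transcript, Diaph2 moved from rank 3 to rank 7 in Pulsed cells and Cdc42ep5 moved from rank 8 to rank 5 in Mettl3-RNP cells, so those positions depend on the length used.

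**Figure D3:**
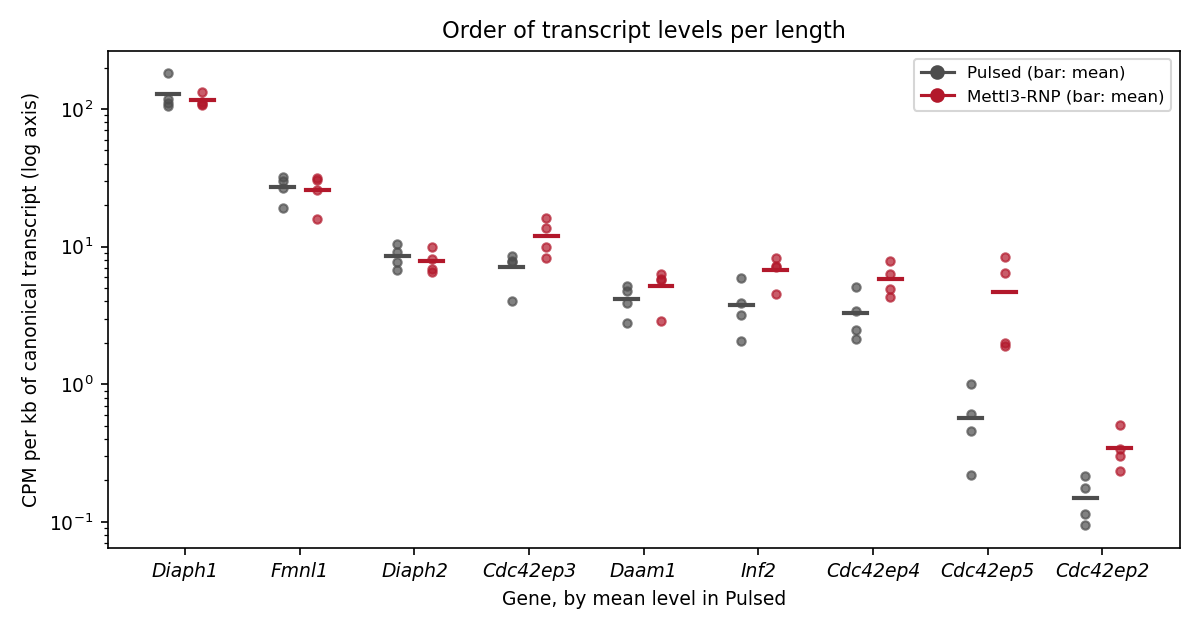
Expression per transcript length (CPM per kb of canonical transcript, log axis), with genes ordered by their mean in Pulsed cells, 1 point per library and bars at the group means. Diaph1 and Fmnl1 stand above the rest, 5 genes lie between 2.06 and 10.4 CPM per kb in Pulsed cells, each overlapping its neighbour in the order, and Cdc42ep5 moves from 0.570 to a mean of 4.67 CPM per kb.

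Other genes of these pathways were read from the same fit, in which 3357 of all 14942 genes had an unadjusted p under 0.05, the background for such counts below. Of 9 other formins, 5 were expressed enough to test and 0 were called by edgeR, with 1 at an unadjusted p under 0.05 (DESeq2 also called 0). The nearest was Fhod1, a formin of stress fibres, at 80.0, 41.5, 19.0 and 56.0 CPM in Mettl3-RNP libraries 1 to 4 and 62.3, 36.6, 15.5 and 47.8 CPM in Pulsed libraries 1 to 4. Fhod1 varied more between replicates than between groups, and was 0.26 higher on the log2 scale (SE 0.0695, adjusted p 0.0750 by edgeR) with 4 of 4 pairs in that direction. Diaph3 had a log2 fold change of -0.12 (adjusted p 0.477) and Fmn1 of -0.05 (adjusted p 0.890). The values of Fmnl2 (0.25, adjusted p 0.821) and Fmnl3 (-0.10, adjusted p 0.917) rested on means of at most 1.73 CPM in either group.

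Cdc42 itself, the GTPase that the effector proteins bind, was fitted at -0.25 on the log2 scale (SE 0.0704, adjusted p 0.0902 by edgeR). It stood at 468, 493, 541 and 460 CPM in Mettl3-RNP libraries 1 to 4 and at 521, 593, 615 and 599 CPM in Pulsed libraries 1 to 4. All 4 pairs were lower, the groups overlapped, and DESeq2 gave an adjusted p of 0.0378. Of 16 small GTPases tested (Cdc42 and its relatives), 3 rose and 0 fell by edgeR, with 6 at an unadjusted p under 0.05. All 3 had been named by the study on these libraries, so their direction is not independent evidence. They were Rhog (log2 fold change 0.94, SE 0.102, adjusted p 0.0105), Rhob (0.83, SE 0.159, adjusted p 0.0340) and Rhoh (0.59, SE 0.0914, adjusted p 0.0207), where Rhog acts upstream of Rac, Rhob is an endosomal relative of RhoA and Rhoh is a GTPase-deficient protein of blood cells. DESeq2 called these 3, Cdc42 as lower and Rhoc as higher, and the edgeR value of Rhoc was 0.76 (SE 0.185, adjusted p 0.0654, 4 of 4 pairs higher). The median of the 16 was -0.01.

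Of 21 tested exchange factors and inhibitors of Cdc42, 1 rose and 0 fell by edgeR, with 5 at an unadjusted p under 0.05. DESeq2 also called the exchange factor Itsn1 as lower, and its edgeR value was -0.56 (SE 0.145, adjusted p 0.0727, 4 of 4 pairs lower). The gene that rose was Arhgap31, a GTPase-activating protein for Cdc42 and Rac, at 24.6, 25.5, 21.3 and 26.9 CPM in Mettl3-RNP libraries 1 to 4 and 15.8, 14.1, 17.0 and 15.9 CPM in Pulsed libraries 1 to 4. The groups of Arhgap31 did not overlap, and its log2 fold change was 0.65 (SE 0.106, adjusted p 0.0257 by edgeR). Of 10 septins tested, 1 rose and 0 fell by edgeR, while 5 were fitted higher and 5 lower. Septin8 stood at 48.7, 77.8, 77.4 and 66.0 CPM in Mettl3-RNP libraries 1 to 4 and 36.0, 48.4, 52.6 and 41.2 CPM in Pulsed libraries 1 to 4, so that Mettl3-RNP 1 lay within the Pulsed range. The log2 fold change of Septin8 was 0.59 (SE 0.0724, adjusted p 0.0139 by edgeR). Septin7, with means of 184 CPM in Mettl3-RNP and 213 CPM in Pulsed cells, was lower in 4 of 4 pairs. Its log2 fold change was -0.21 (SE 0.0715, adjusted p 0.141 by edgeR).

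Among 19 other Cdc42 effectors, which include the WASP and PAK families, 0 were called by edgeR or by DESeq2, 1 had an unadjusted p under 0.05, and the median log2 fold change was -0.00033. Of 28 actin assembly factors, such as actins, profilins, cofilins and Arp2/3 subunits, 0 were called by edgeR and 2 had an unadjusted p under 0.05, while DESeq2 called Capg, an actin capping protein, as higher. The edgeR value of Capg was 0.48 (SE 0.113, adjusted p 0.0623, 4 of 4 pairs higher). By edgeR it was also called with no filter on low counts, with at least 10 counts in every library, and without replicate 1. The median of the 28 was -0.09, with 21 fitted lower. Of 13 tested genes in a list of SRF, its actin-sensing cofactors and their usual targets, 0 rose and 1 fell by edgeR, with 6 at an unadjusted p under 0.05 in both directions. Tagln2, an actin-binding protein, had a log2 fold change of -0.35 (SE 0.0720, adjusted p 0.0443 by edgeR) that lost its call in 7 of 11 alternatives.

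Over all 112 pathway genes tested 5 rose and 1 fell, or 5.36% called, beside the 3.74% of all genes, and the median log2 fold change was -0.03. Without replicate 2, 0 of these genes were called by edgeR, and 15 of the 110 then tested had an unadjusted p under 0.05, beside 2236 of all 14904 genes. Rhob also lost its call without replicate 3 and Arhgap31 without replicate 1.

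**Figure D4:**
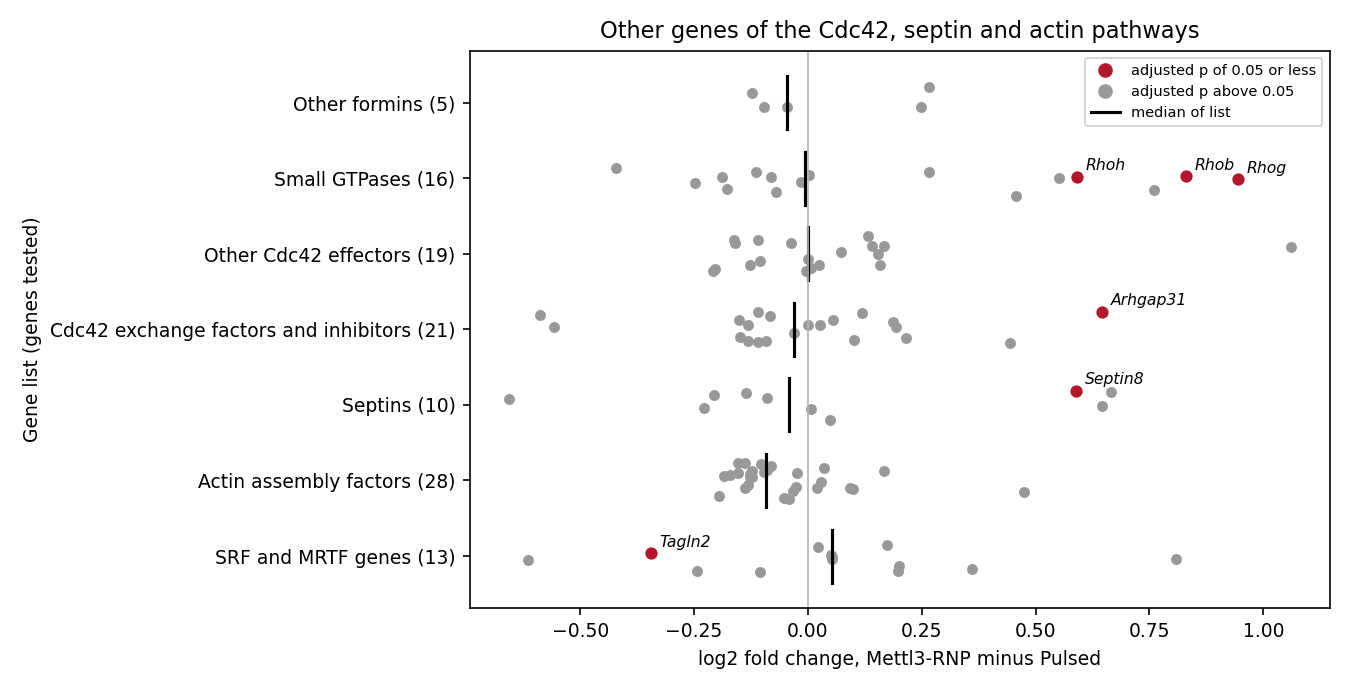
Log2 fold changes, Mettl3-RNP minus Pulsed, of the 112 tested pathway genes by list, with 1 point per gene (scattered vertically for legibility), red points for called genes and black bars at the list medians. The medians lie between -0.09 and 0.05, and the 6 named genes are those called.

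The families differ in gene structure. Cdc42ep2 to Cdc42ep5 each have 1 coding exon, and Cdc42ep1 has 2. The 5 formins have 21 to 27 coding exons, against a median of 9 over 12056 tested protein-coding genes. Exon junctions numbered 0.293 to 1.59 per kb of transcript in the effector genes and 4.00 to 6.80 per kb in the formins, on either side of the median of 2.62 per kb. Inf2, with 4.75 junctions per kb, lay among the formins in structure and among the effectors in fold change. The fold changes were known when the genes were chosen, so nothing is read from setting structure against them.

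Over all tested protein-coding genes, 712 had 1 coding exon, and Cdc42ep2 to Cdc42ep5 are among these 712. Of these 63 (8.85%) were called higher and 13 (1.83%) lower, with a median log2 fold change of 0.15. Of the 11344 genes with more coding exons 263 (2.32%) were called higher and 175 (1.54%) lower, with a median of -0.0029. Without replicate 2 the counts of higher genes fell to 2 of 707 and 7 of 11331, and the medians were 0.09 and -0.02. Mettl3-RNP 2 was also the library with the largest share of receptor genes with a count (37.4% of 1969), and its part in this was not tested.

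**Figure D5:**
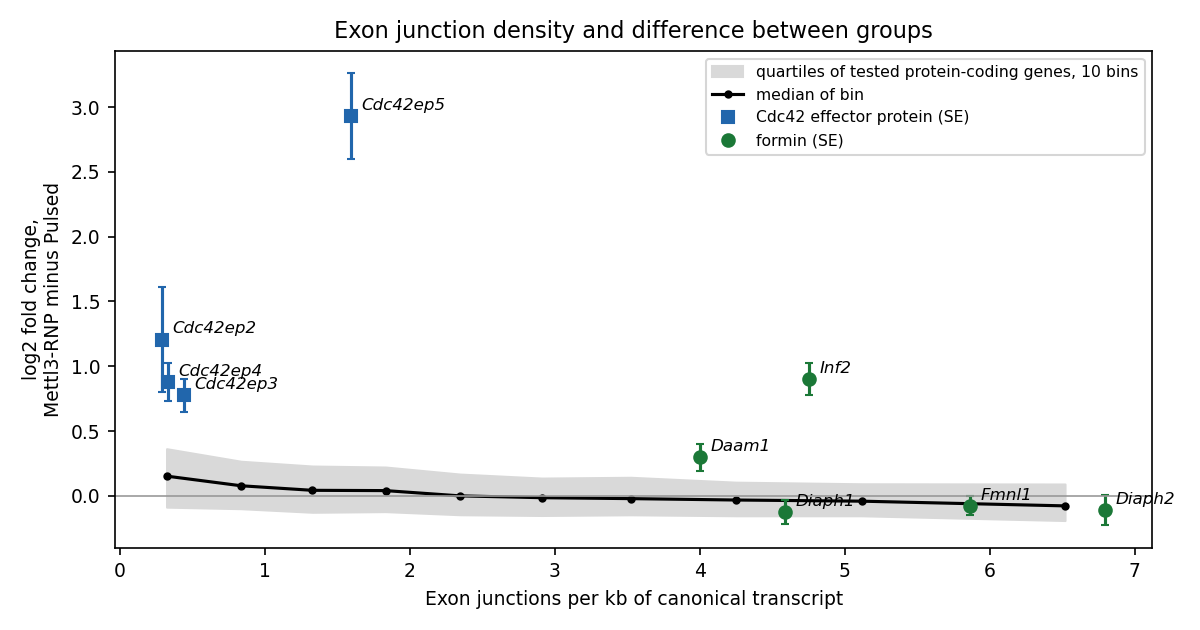
Exon junctions per kb of canonical transcript against log2 fold change, Mettl3-RNP minus Pulsed. The black line and grey band are the median and quartiles of tested protein-coding genes in 10 bins of junction density, squares are Cdc42 effector genes and circles are formins, each with its SE; Inf2, Daam1 and the 4 effector genes lie above the band, and Diaph1, Diaph2 and Fmnl1 lie within its range.

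The sequence GGACT, the most usual context in which the Mettl3 complex methylates adenosine, was searched on the transcript strand of the canonical transcripts. It occurred in 93.8% of 12056 tested protein-coding transcripts and in 76.6% of their coding sequences, so its presence sets no member apart. Inf2 held 4 matches, Cdc42ep3 held 4, Cdc42ep4 held 5 and Cdc42ep5 held 2, none of the last in its coding sequence. Per length the effector transcripts held 1.44 to 1.76 matches per kb and the formins 0.235 to 1.00, beside a median of 1.04. Fmnl1 had the lowest density. A match is a stretch of letters and not a methylated site.

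For the called genes with a match in the coding sequence, the last such match is shown with its flanks, as an example of the sequence. A link between the motif and the level of a transcript was not tested. The motif is in capitals, each window is 21 bases long in the sense of the transcript (GRCm39), and the windows lie at chr12:112572231-112572251 on the plus strand (exon 10 of Inf2), chr17:79642634-79642654 on the minus strand (exon 2 of Cdc42ep3) and chr11:113619994-113620014 on the minus strand (exon 2 of Cdc42ep4):
Inf2: acttttctGGACTccaagaag
Cdc42ep3: agcacctcGGACTcaatgttc
Cdc42ep4: gcggagaaGGACTcgagcaag

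The genes most like Inf2 and Cdc42ep5 across the 8 libraries were ranked by Pearson's r of log2 CPM over 11948 genes, as a description. The points share the groups and the replicate numbers, so that a gene with both a group difference and the same replicate pattern ranks high. For Inf2 they were Ssh3, a cofilin phosphatase (r = 0.977), Zbtb42, a zinc finger repressor that lies 63226 bases from Inf2 on the same chromosome (0.976), and Nat2, an arylamine acetyltransferase (0.972). Each of these had an adjusted p of 0.0271 to 0.0311 by edgeR and log2 fold changes of 0.44 to 0.60. For Cdc42ep5 they included Lilra6 (0.977) and Selplg, the P-selectin ligand of leukocytes (0.973), and of this pair Selplg was called, with a log2 fold change of 0.64 and an adjusted p of 0.0105 by edgeR. Lilra6 lies 235499 bases from Cdc42ep5 on the same chromosome. It was rare, with means of 0.840 CPM in Pulsed and 1.62 CPM in Mettl3-RNP cells. Among the members themselves, r was 0.914 for Inf2 with Cdc42ep2 and 0.914 for Cdc42ep3 with Cdc42ep5. Inf2 and Diaph1 ran in opposite directions at -0.80, with replicate 3 high in Diaph1 and low in Inf2. Cdc42ep4 followed none of the other members above 0.465.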

How the data were processed

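Poly-A RNA of 8 BMMC cultures was sequenced in paired-end reads, 4 libraries per group. The authors aligned the reads with HISAT2 2.2.1 to GRCm39 and assigned them to Ensembl genes with featureCounts 2.0.1 (FastQC 0.11.9 for quality), per the labels and the study's methods. Strand and multimapping settings were not given in the sources used here. The deposited values are raw counts with no normalization, 1 table per library. Reads carry no molecular identifiers, so intervals and floors from counts cover counting error only.

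Gene names and structures came from GENCODE release M39 (GRCm39), which named 56017 of 56748 IDs (98.7%); in no library did unnamed IDs take more than 0.113% of the counts. Genes were kept by filterByExpr (about 10 counts in 4 libraries), scaled by TMM and tested with edgeR 4.0.16 (glmQLFit and glmQLFTest, R 4.3.3) in a model of group and replicate number (the block), with Benjamini-Hochberg adjustment over 14942 genes. A gene was called at an adjusted p of 0.05 or less. SE was derived from the F statistic, intervals are 95% from the t distribution, CPM used TMM library sizes and log2 CPM a prior count of 2.

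The series text names 4 mice, and reading each number as 1 mouse is an inference. Libraries that share a number deviated together, with correlations of 0.825, 0.489, 0.879 and 0.765 between their deviations in pairs 1 to 4, against at most 0.183 for different numbers. Alternatives were no replicate block, DESeq2 size factors, library size alone, no filter, at least 10 counts in every library, the Wald test of DESeq2 1.42.0, voom of limma 3.58.1, and each replicate left out. Scripts were tested on simulated data.

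The text names the members, Mettl3, Cdc42, called pathway genes, tested other formins, genes overlapping exons of a member, and for Inf2 and Cdc42ep5 the 3 genes of at least 1 CPM with the highest correlation, of which 1 is not reported here. Egr1 and the receptor genes were added as measures of libraries that stand apart, and Capg, Rhoc and Itsn1 because DESeq2 called them. Septin7 was added as an abundant septin fitted lower. All of these were chosen after their values were seen. Of the markers, Mcpt5, an older symbol of Cma1, was not matched. The members and gene lists were chosen with earlier results of these data known.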

Additional observations from a re-analysis of the deposited data

Results flagged for a closer look

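Of 44 groups of 4 values examined, 3 held a library far from the other 3, where chance gives about 2.2. Daam1 was low in Mettl3-RNP 3, at 17.3 CPM against 34.3 to 37.8 CPM in the other Mettl3-RNP libraries. Mettl3 was low in Pulsed 3, at 11.2 CPM against 24.5 to 26.5 CPM in the other Pulsed libraries. Rhoh was high in Mettl3-RNP 3, at 193 CPM against 101 to 115 CPM in the other Mettl3-RNP libraries. All 3 values belong to replicate 3, the replicate with the highest Egr1 in both groups, and the part of that difference in these values was not tested.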

How the results depend on the processing

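Direction held for each of the 9 tested members in all 11 alternatives, except Diaph2, which ranged from -0.22 to 0.011 with a replicate left out and was above 0 without replicate 3. The 4 members called in the main fit were called by edgeR with DESeq2 size factors, library size alone, no filter and at least 10 counts in every library, by the DESeq2 Wald test, by limma-voom, and without replicate 1, 3 or 4. With no replicate block, 0 members, 0 formins, 0 Cdc42 effector genes and 0 pathway genes were called, as were 0 of all genes (559 with the block), with 579 genes at an unadjusted p under 0.05 against 3357 with the block, and Mettl3 was -1.31 with an adjusted p of 0.744. With each replicate left out, calls ranged from 0 to 4 for members, 0 to 1 for formins, 0 to 3 for effector genes, 0 to 5 for pathway genes and 26 to 383 for all genes, and the lowest of each was without replicate 2. All genes called numbered 993 with no filter, 959 with at least 10 counts in every library and 1449 by DESeq2, which also called 10 pathway genes in place of 6. Pathway genes called were 8 with no filter and 9 with at least 10 counts in every library, with Rhoc, Itsn1 and Capg among them in each. Among other formins, with a replicate left out Fmnl2 ranged from -0.0099 (without replicate 2) to 0.23 (not tested without replicate 1), Fmn1 from -0.11 to 0.072 (without replicate 1) and Fmnl3 from -0.33 to 0.33 (without replicate 1), and Fmnl3 was 0.031 with no replicate block and 0.042 by limma-voom. These are low or nearly equal transcripts, and the cause was not tested. Depth limits Cdc42ep1, which had at most 1 count in a library.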
